A study of Mus musculus with 6 samples.

Results

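Versican, aggrecan, the link protein Hapln1, the hyaluronan synthases Has1 and Has2 and the hyaluronan receptor Cd44 were taken by gene symbol from the deposited gene table, which holds 34745 genes, and all 6 symbols were found once. Hyaluronan is an unsulfated sugar chain that synthases in the plasma membrane build from sugar nucleotides and extrude from the cell. Versican and aggrecan, large proteoglycans of the hyalectan family, bind it through link domains at their amino-terminal ends, and link proteins lock that contact, while CD44 anchors the chain to the cell surface. In the heart this matrix is known for its part in the cushions that form the valves, where versican and Has2 are needed, and for its return in injured myocardium.

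The study sequenced total RNA of the left ventricle of male wild-type C57BL/6 mice, 8 weeks old per the labels. Of the 6 libraries, 3 are labelled TAC, for transverse aortic constriction, a ligature around the aortic arch that raises the load on the left ventricle, and 3 are labelled Sham, for the operation without the ligature. Tissue was collected 6 weeks after surgery. The labels do not say whether a library is 1 mouse or a pool, so p-values measure the spread between libraries only.

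Gene counts summed to 17399510 to 28401399 per library, the library labelled Sham 2 being the deepest. The 7 cardiomyocyte markers together took at least 101667 CPM (counts brought to one library size with the TMM factors of edgeR) in every library. Nppa, the atrial natriuretic peptide gene, which pressure overload is known to raise, ranged from 64.3 to 95.1 CPM under the TAC label and from 595 to 1894 CPM under the Sham label. Acta1, skeletal alpha-actin, had a fitted difference of 9.41-fold with the same sign. Nppa and Acta1 go against the labels, so groups are named by label throughout. Each direction is that of the labels, and TAC 1 or Sham 1 stands for the library so labelled. Myh7, also set as a check gene for the labels, is not reported here. No pair of libraries within a group agreed within sampling noise: the chi-square of their counts, divided by the number of genes, was 16.7 or more.

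None of the 6 genes passed an adjusted p of 0.05 in edgeR's quasi-likelihood test over all genes, where 1.43% of 15198 genes did, 1.11% with the libraries labelled Sham higher. Of the 5 that passed the filter on low counts, all had a negative log2 difference (labelled TAC minus labelled Sham), as 49.1% of all genes tested did. An unadjusted p under 0.05 was reached by Vcan, Cd44 and Acan, each higher in the libraries labelled Sham, which held for 11.4% of all genes. DESeq2 called Vcan and Cd44 on the same libraries, with 8.02% of all genes called, 4.78% in the same direction. The same genes passed in edgeR when the library labelled Sham 1 was left out, with 2.57% of all genes called, 1.77% in the same direction. No member passed in any other setting tried, where the share of all genes called was 1.47% with median-of-ratios size factors, 2.22% with unscaled totals, 1.96% without a filter, 1.34% among genes averaging 1 FPKM or more, and 0.27% with a replicate block. It was 1.88% and 1.85% with limma on log2(FPKM + 0.1) and log2(FPKM + 1). Without TAC 1, 2 or 3 it was 0%, 0.0645% and 0.142%, and without Sham 2 or 3 0.155% and 0.258%. The median log2 difference of the 5 was -1.22, against 0.01 over all genes tested.

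The promoters of Vcan and Cd44 are shown because these were the members with the smallest p and the most similar profiles over the libraries. The table of RefSeq promoters (GRCm38.p6) held 5 of the 6 genes, all but Has2. Each sequence gives the 250 bases before the transcription start, 5′ to 3′ on the strand of the gene, which is the minus strand for both. Vcan lies at chr13:89742513-89742762 and Cd44 at chr2:102901666-102901915. Capitals mark matches to any of 6 short motifs searched on both strands. The core promoter motifs were TATAAA for the TATA box, then GGGCGG for the GC box, and CCAAT. The others were TGANTCA for AP-1 factors, then GGAATG for TEAD factors, and TGACGTCA for the cyclic AMP response element (CRE). No match overlapped another in the windows printed.
Vcan: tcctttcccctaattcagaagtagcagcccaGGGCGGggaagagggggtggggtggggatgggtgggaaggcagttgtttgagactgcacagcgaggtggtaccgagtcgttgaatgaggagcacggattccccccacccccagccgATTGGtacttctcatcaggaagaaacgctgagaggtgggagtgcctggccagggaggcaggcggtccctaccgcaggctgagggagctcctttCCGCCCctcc
Cd44: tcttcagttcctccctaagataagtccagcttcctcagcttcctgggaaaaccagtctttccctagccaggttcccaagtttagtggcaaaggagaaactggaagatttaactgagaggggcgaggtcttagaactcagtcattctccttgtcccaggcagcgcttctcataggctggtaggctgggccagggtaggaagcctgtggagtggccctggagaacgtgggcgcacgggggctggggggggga

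The Vcan window held GC boxes that began 219 and 10 bases before the start, the latter read on the other strand. Its CCAAT box, also read on the other strand, began 103 bases before the start. The Cd44 window held none of the 6 motifs. Of all 32851 promoter windows of this length, 32.7% held a GC box and 33.8% a CCAAT box. TATAAA was in 12.4%, AP-1 in 6.75%, TEAD in 12.6% and CRE in 1.55%. No window of the 5 members held TATAAA or AP-1. CRE was in that of Has1, beginning 83 bases before the start, TEAD in that of Acan, where it overlaps a GC box, and Hapln1 had none of the motifs. These matches are letters in a window and were not tested as binding sites.

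Vcan (ENSMUSG00000021614, chromosome 13, 89655312 to 89742509 on GRCm38) encodes versican, a chondroitin sulfate proteoglycan of loose, hydrated matrix. Its deposited FPKM (fragments per kilobase of gene length, scaled to the library's total) was 4.19, 3.30 and 1.85 in TAC 1, 2 and 3, against 5.13, 17.1 and 10.97 in Sham 1, 2 and 3. The groups did not overlap, as in 13.6% of all genes in this direction, but Sham 1 lay nearer to the libraries labelled TAC than to Sham 2 and 3. In scaled counts the means were 64.0 ± 25.1 CPM (SD, n = 3) labelled TAC and 217 ± 121 CPM (SD, n = 3) labelled Sham. The fitted log2 difference, labelled TAC minus labelled Sham, was -1.77 (SE 0.46), 3.40-fold, with an edgeR adjusted p of 0.101. It was -2.11 (adjusted p = 0.0448) without Sham 1, and DESeq2 gave -1.76 on all libraries (adjusted p = 0.000743). Versican mRNA is spliced into several forms that differ in the chain-bearing exons, and the table gives their sum only.

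Cd44 (ENSMUSG00000005087, chromosome 2, 102811141 to 102901665) encodes the main cell-surface receptor of hyaluronan, carried by leukocytes, fibroblasts and many other cells. Its FPKM was 2.50, 1.80 and 2.29 in TAC 1, 2 and 3, against 2.31, 7.28 and 6.46 in Sham 1, 2 and 3. Sham 1 was thus within the range of the libraries labelled TAC, while Sham 2 and Sham 3 were above every other library. The coefficient of variation was 17.0% among the libraries labelled TAC and 50.1% among those labelled Sham. The fitted log2 difference was -1.22 (SE 0.38), 2.33-fold, with an edgeR adjusted p of 0.138. Without Sham 1 it was -1.58 (adjusted p = 0.0242), and with DESeq2 -1.22 (adjusted p = 0.0159). Spliced forms of Cd44 with variable exons are not told apart in the table. The splicing regulators Rbm24 (log2 difference 0.29, edgeR adjusted p = 0.231) and Srsf10 (0.19, adjusted p = 0.496) did not pass, nor did the other 2 tested of 5 such regulators.

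Has2 (ENSMUSG00000022367, chromosome 15, 56665627 to 56694539), the main hyaluronan synthase of the developing heart, had few reads. Its counts were 42, 32 and 49 in TAC 1, 2 and 3, against 17, 103 and 64 in Sham 1, 2 and 3. In CPM the lowest library of all was Sham 1, at 0.813 with an exact 95% Poisson interval of 0.474 to 1.3, and the highest was Sham 2, at 3.64 with an interval of 2.97 to 4.41. Such intervals cover counting error only. The library labelled Sham 1 was therefore below the others labelled Sham by more than counting error, and the groups overlapped. The fitted log2 difference was -0.37 (SE 0.50, edgeR adjusted p = 0.722), -0.80 without Sham 1 and -0.05 without Sham 2.

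Has2 shares 4596 bases of its locus with Has2os, an antisense transcript gene. The strand setting of the authors' counting was not given in the sources used here, so reads of the overlap cannot be assigned. Has2os stood at 0.203 to 0.773 CPM in the libraries labelled TAC and 0.478 to 0.883 CPM in those labelled Sham, and did not pass (log2 difference -0.71, edgeR adjusted p = 0.512).

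Has1 (ENSMUSG00000003665, chromosome 17, 17843328 to 17855188), a synthase linked to inflammation in other tissues, had counts of 12, 0 and 13 in TAC 1, 2 and 3, against 4, 33 and 26 in Sham 1, 2 and 3. Sham 2 and Sham 3 were again the highest libraries and Sham 1 was among the lowest. The count of 0 in TAC 2 allows a level of up to 0.153 CPM, taking 3 counts as the limit, while TAC 3 stood at 0.661 CPM. The fitted log2 difference was -1.14 (SE 0.93, edgeR adjusted p = 0.525), -0.57 without TAC 2, -1.63 without TAC 3, -0.75 without Sham 3 and -1.62 without Sham 1.

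Has3, the remaining synthase, did not share this pattern of high values in Sham 2 and Sham 3. It stood at 2.13 to 3.46 CPM in the libraries labelled TAC and 1.94 to 2.34 CPM in those labelled Sham (log2 difference 0.32, SE 0.26, edgeR adjusted p = 0.527; 0.07 without TAC 2). Per length, the FPKM of the 3 synthases summed to 0.953, 0.724 and 1.12 in TAC 1, 2 and 3 and to 0.531, 1.61 and 1.80 in Sham 1, 2 and 3. Has2 gave 36.6% of that sum in Sham 1 and 48.2% to 53.1% in the other 5 libraries. Has3 gave 12.1% and 12.4% in Sham 3 and Sham 2, and 19.5% to 48.1% elsewhere.

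Acan (ENSMUSG00000030607, chromosome 7, 79053483 to 79115099) encodes aggrecan, the hyalectan of cartilage, which the valves and the outflow tract also make. Its counts were 6, 12 and 14 in TAC 1, 2 and 3, against 38, 47 and 13 in Sham 1, 2 and 3. Here Sham 1 and Sham 2 were high and Sham 3, at 0.706 CPM, was within the range of the libraries labelled TAC, 0.290 to 0.712 CPM. The fitted log2 difference was -1.38 (SE 0.48), 2.61-fold, with an edgeR adjusted p of 0.167. It shrank to -0.66 and -0.12 with limma on log2(FPKM + 0.1) and log2(FPKM + 1), a scale that compresses genes at this level.

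Hapln1 (ENSMUSG00000021613, chromosome 13, 89540636 to 89611832) encodes the link protein that holds hyalectans on hyaluronan, and is known from heart cushions and valves. It is the neighbour of Vcan, with 43.5 kb between their spans. Its counts were 4, 8 and 15 in TAC 1, 2 and 3, against 3, 2 and 9 in Sham 1, 2 and 3, too few to pass the filter. In the fit without a filter its log2 difference was 1.01 (SE 0.78, edgeR adjusted p = 0.571). The highest library was TAC 3, at 0.762 CPM with an exact 95% Poisson interval of 0.427 to 1.26. The lowest was Sham 2, at 0.0706 CPM with an interval of 0.00855 to 0.255, while the other libraries lay between them and the groups overlapped. Sham 2, the lowest library for Hapln1, was the highest for Vcan, and the ratio of Vcan to Hapln1 FPKM ran from 12.3 in TAC 3 to 1229 in Sham 2, on 2 Hapln1 counts in the latter.

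Per length, Vcan was the most abundant member in 5 libraries and Cd44 in the library labelled TAC 3. The mean FPKM of Vcan and Cd44 was 3.12 ± 1.18 and 2.20 ± 0.36 (SD, n = 3) labelled TAC and 11.1 ± 6.0 and 5.35 ± 2.66 (SD, n = 3) labelled Sham, with ranges that overlapped in both groups. Neither overlapped Has2 in any group. Has2 followed at 0.474 ± 0.104 and 0.639 ± 0.386 (SD, n = 3), then Has1 at 0.194 ± 0.169 and 0.455 ± 0.323 (SD, n = 3). These synthases did not overlap in the libraries labelled TAC and overlapped in those labelled Sham. Acan, at 0.0563 ± 0.0237 and 0.151 ± 0.062 (SD, n = 3), and Hapln1, at 0.0885 ± 0.0571 and 0.0483 ± 0.0473 (SD, n = 3), were the lowest. Their ranges overlapped in each group, and that of Has1 overlapped both. In the libraries labelled Sham the range of Acan also overlapped that of Has2, with Acan at 0.196 and Has2 at 0.194 in Sham 1. The Vcan to Acan ratio of FPKM lay between 24.6 and 141 over the 6 libraries, and that of Vcan to Cd44 between 0.809 and 2.35.

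**Figure D1:**
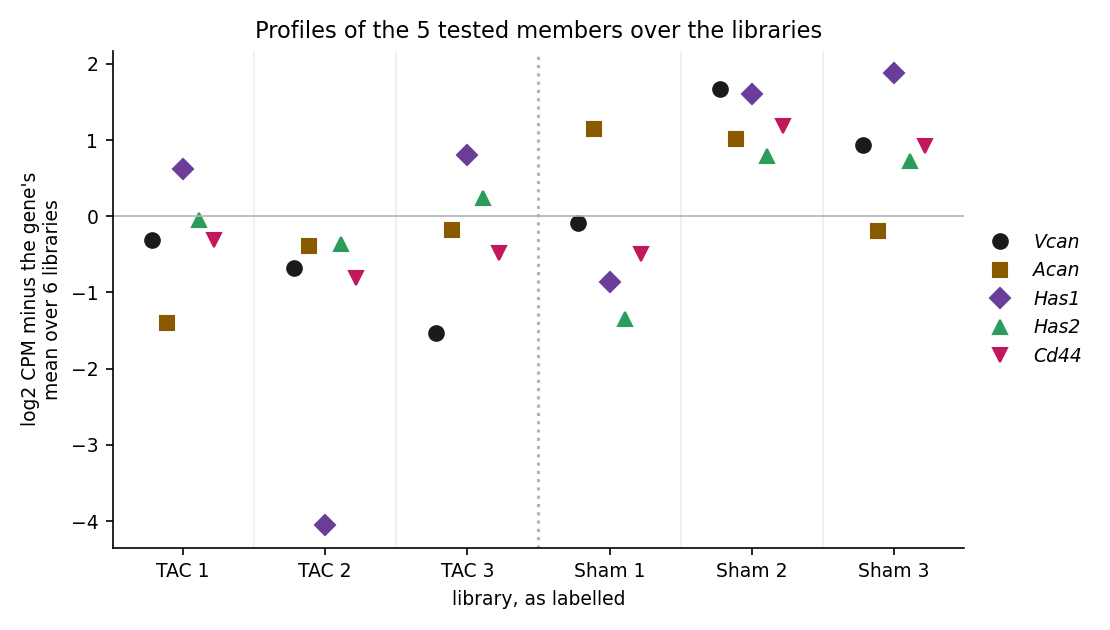
Log2 CPM of the 5 tested members minus each gene's own mean over the 6 libraries (vertical axis), by library as labelled (horizontal axis). Sham 2 and Sham 3 are above the mean for Vcan, Cd44, Has1 and Has2, Sham 1 is at -1.34 for Has2 and at 1.15 for Acan, and the point at -4.06 is Has1 in TAC 2, with a count of 0.

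Over the libraries, Cd44 was closest to Vcan and Has2 among the members. The measure is the root mean square difference of log2 CPM after centring each gene on its mean of the 6 libraries, given as a description. It was 0.50 between Cd44 and Vcan and 0.53 between Cd44 and Has2, and from 0.95 to 2.13 for the other 8 pairs. Among 9913 or 9914 candidates with a mean FPKM of at least 1, the genes closest to Cd44 were Itga5, a fibronectin receptor subunit (0.12), Rras2, a small GTPase (0.14), and Fgl2, a fibrinogen-like protein (0.17). Those closest to Vcan were Synpo2l, an actin-associated Z-disc protein (0.21), Syt12, a synaptotagmin (0.22), and Fstl3, which binds activins (0.27). Acan was closest to the matrix protein gene Omd (0.21), Fam107a (0.25) and the collagen receptor subunit Itga11 (0.26). Has2 was closest to the phosphatase gene Dusp5 (0.28), Napepld (0.28) and the transcription factor gene Foxs1 (0.33). For Has1 the closest, Gdf15, Mmp3 and Nppb, were at 1.02 to 1.14, with the 0 in TAC 2 setting most of its spread.

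Marker genes of 2 cell types passed the edgeR test, which 1.43% of all genes tested did, 1.11% with the libraries labelled Sham higher. The summed levels of other lists are given beside them. In bulk tissue fewer cells of a type and less RNA per cell cannot be told apart. Of 7 activated fibroblast markers, 4 passed (Postn, Thbs4, Comp and Cilp), all higher in the libraries labelled Sham, and the list summed to 196 to 371 CPM labelled TAC and 1137 to 2545 CPM labelled Sham. Acta2, named after its values were seen, was the 1 gene of that list with a positive estimate, at 158 ± 46.9 CPM labelled TAC and 96.8 ± 14.9 CPM labelled Sham (SD, n = 3; log2 difference 0.71, edgeR adjusted p = 0.145). The activated fibroblast sum was 1313, 2545 and 1137 CPM in Sham 1, 2 and 3. The 7 general fibroblast markers summed to 1210.2 to 1682 CPM and 1765 to 2302 CPM, with none past the threshold. The 7 macrophage markers summed to 117 to 211 CPM and 248 to 268 CPM and the 6 pan-leukocyte markers to 36.1 to 73.9 CPM and 72.6 to 83.4 CPM, none past it. Of 8 valve interstitial and chondrocyte markers, 4 were tested, 3 with a negative estimate and 1 with a positive one (0.10). Sox9 and Prg4 passed, both higher in the libraries labelled Sham. The list summed to 19.5 to 30.1 CPM labelled TAC and 82.1 to 174 CPM labelled Sham. The cartilage collagen genes Col2a1 and Col9a1 had at most 2 and 3 counts in any library. The 7 cardiomyocyte markers lay the other way, at 125354 to 144020 CPM labelled TAC and 101667 to 117693 CPM labelled Sham, with 6 positive estimates and none past the threshold. No gene passed in the lists for lymphocytes, neutrophils, endothelium, endocardium, pericytes and smooth muscle, mesothelium or Schwann cells. The part of these cell types in the values of the 6 genes was not tested.

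Beyond the members, the wider hyaluronan and hyalectan pathway was read from lists of 98 genes, 82 of them tested. All 4 that passed in edgeR were higher in the libraries labelled Sham: Tlr4, Itih2, Dse and Spp1. Of all genes tested, 1.43% passed, 1.11% with the libraries labelled Sham higher, and 49.1% had a negative estimate. These shares apply beside the counts of each list below. The median log2 difference of the 82 was -0.43, against 0.01 over all genes tested. The lists were compiled with earlier results of these libraries known, so the counts describe these genes and are no independent evidence of a direction.

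Among 18 genes of hyaluronan binding proteins and receptors, 15 were tested, 13 had a negative estimate and 2 passed (median log2 difference -0.65). Tlr4, an innate immune receptor that hyaluronan fragments are reported to engage, was 13.5, 8.86 and 12.2 CPM in TAC 1, 2 and 3 and 54.1, 92.5 and 83.4 CPM in Sham 1, 2 and 3. All 3 libraries labelled Sham were far above the others, Sham 1 included. The fitted difference was 6.66-fold (log2 difference -2.73, SE 0.24, edgeR adjusted p = 0.0114), and it missed the threshold only without TAC 1 (adjusted p = 0.0577). Itih2, a heavy chain of inter-alpha-inhibitor that is transferred onto hyaluronan, differed 3.71-fold (edgeR adjusted p = 0.0459). It had 0.651 ± 0.236 CPM labelled TAC and 2.42 ± 0.405 CPM labelled Sham (SD, n = 3). The Itih2 call was lost without any 1 of the 6 libraries (edgeR adjusted p = 0.0564 to 0.143) and with the replicate block (edgeR adjusted p = 0.128). Tlr2 (log2 difference -0.81, edgeR adjusted p = 0.0609) and Layn, which encodes the hyaluronan receptor layilin (-0.87, adjusted p = 0.0823), did not pass.

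None of the 10 genes of sugar nucleotide supply passed, and 9 had a negative estimate (median log2 difference -0.32). Ugp2, which makes UDP-glucose, had 327 ± 41.7 CPM labelled TAC and 523 ± 105 CPM labelled Sham (log2 difference -0.68, edgeR adjusted p = 0.101). Ugdh, which oxidises it to the UDP-glucuronate that synthases use, was at -0.56 (adjusted p = 0.175). For hyaluronan breakdown, 6 of 10 genes were tested, all with a negative estimate (median -0.47), and none passed. Gusb, beta-glucuronidase, had a log2 difference of -0.46 (edgeR adjusted p = 0.109).

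Of 22 genes of chondroitin sulfate chain synthesis, the sugar side of versican and aggrecan, 21 were tested, 17 had a negative estimate and Dse passed (median log2 difference -0.29). Dse encodes an epimerase that turns chondroitin into dermatan sulfate. It had 10.4 ± 0.953 CPM labelled TAC and 18.3 ± 2.36 CPM labelled Sham, 1.76-fold apart (edgeR adjusted p = 0.0488). Dse passed in 1 of the 6 fits with a library left out, that without Sham 1 (edgeR adjusted p up to 0.148 in the others). With the replicate block it did not pass (edgeR adjusted p = 0.128). Chpf2, a chain polymerisation factor, was at -0.94 (edgeR adjusted p = 0.0729) and the sulfotransferase gene Ust at -0.62 (adjusted p = 0.122). None of 7 tested proteases that cut hyalectans passed, with 4 negative estimates (median -0.59). Adamts8 had a log2 difference of -1.68 (edgeR adjusted p = 0.105) and Adamts20 of -1.32 (adjusted p = 0.144).

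Among 17 binding partners of versican and CD44, 12 had a negative estimate and Spp1 passed (median log2 difference -0.56). Spp1 encodes osteopontin, a matrix protein and CD44 ligand. It stood at 0.967, 1.32 and 1.22 CPM in TAC 1, 2 and 3 and 7.70, 17.1 and 38.3 CPM in Sham 1, 2 and 3 (log2 difference -4.16, SE 0.60, edgeR adjusted p = 0.0288). The call was lost without TAC 1, TAC 2, TAC 3 or Sham 2 (adjusted p = 0.0790 to 0.111) and with limma on log2(FPKM + 1) (-1.87, adjusted p = 0.0639), and the difference was -3.41 without Sham 3. Fbln2, the gene of the versican-binding fibulin-2, had a log2 difference of -1.14 (edgeR adjusted p = 0.0568) and Fbn1, fibrillin-1, of -1.46 (adjusted p = 0.0778).

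**Figure D2:**
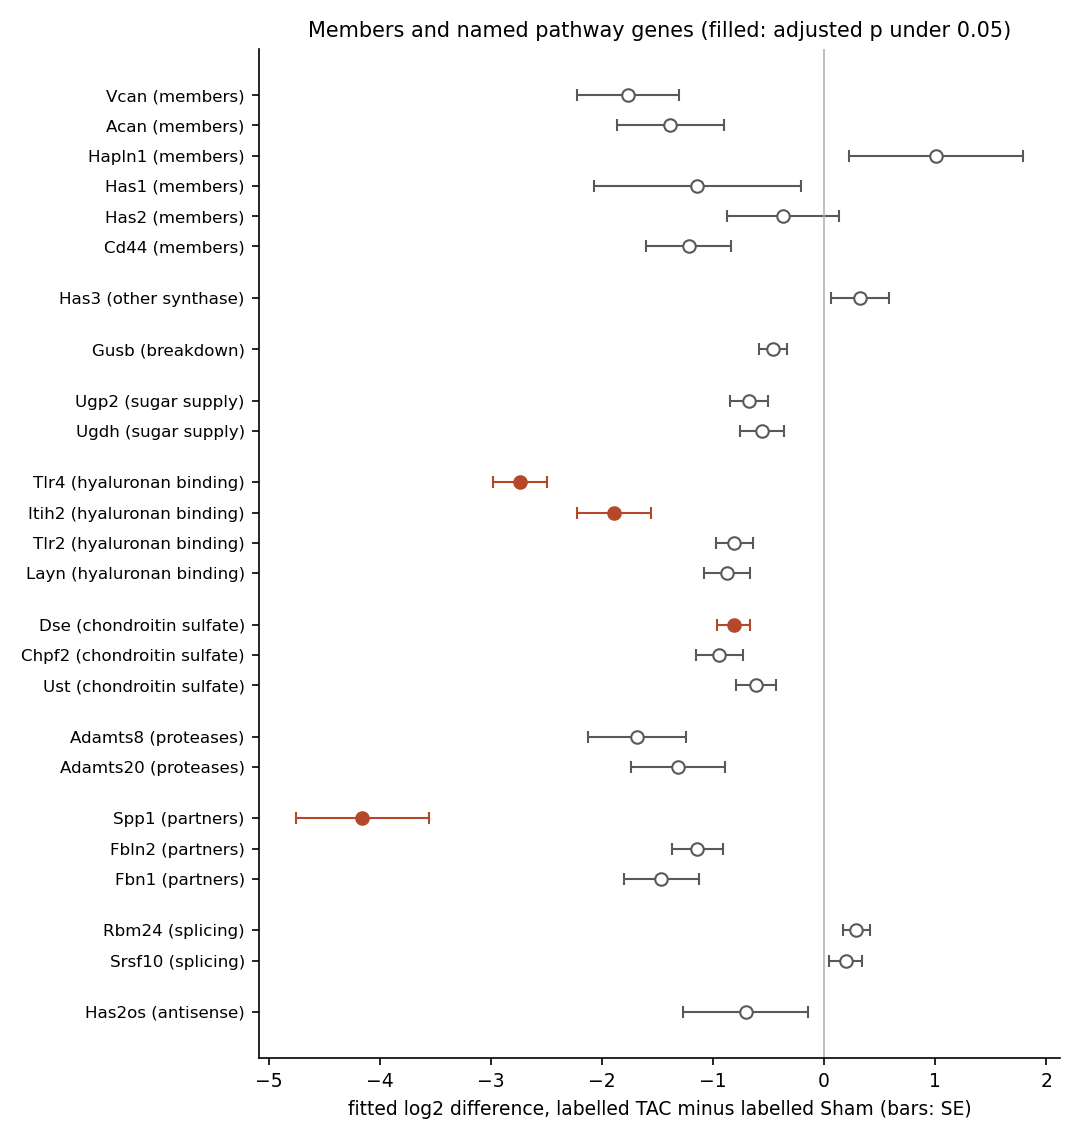
Fitted log2 difference, labelled TAC minus labelled Sham (horizontal axis), with SE bars, for the 6 members and the named genes of each pathway list, Hapln1 from the fit without a filter. Tlr4, Itih2, Dse and Spp1 are filled, for an adjusted p under 0.05, and no member is.

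**Figure D3:**
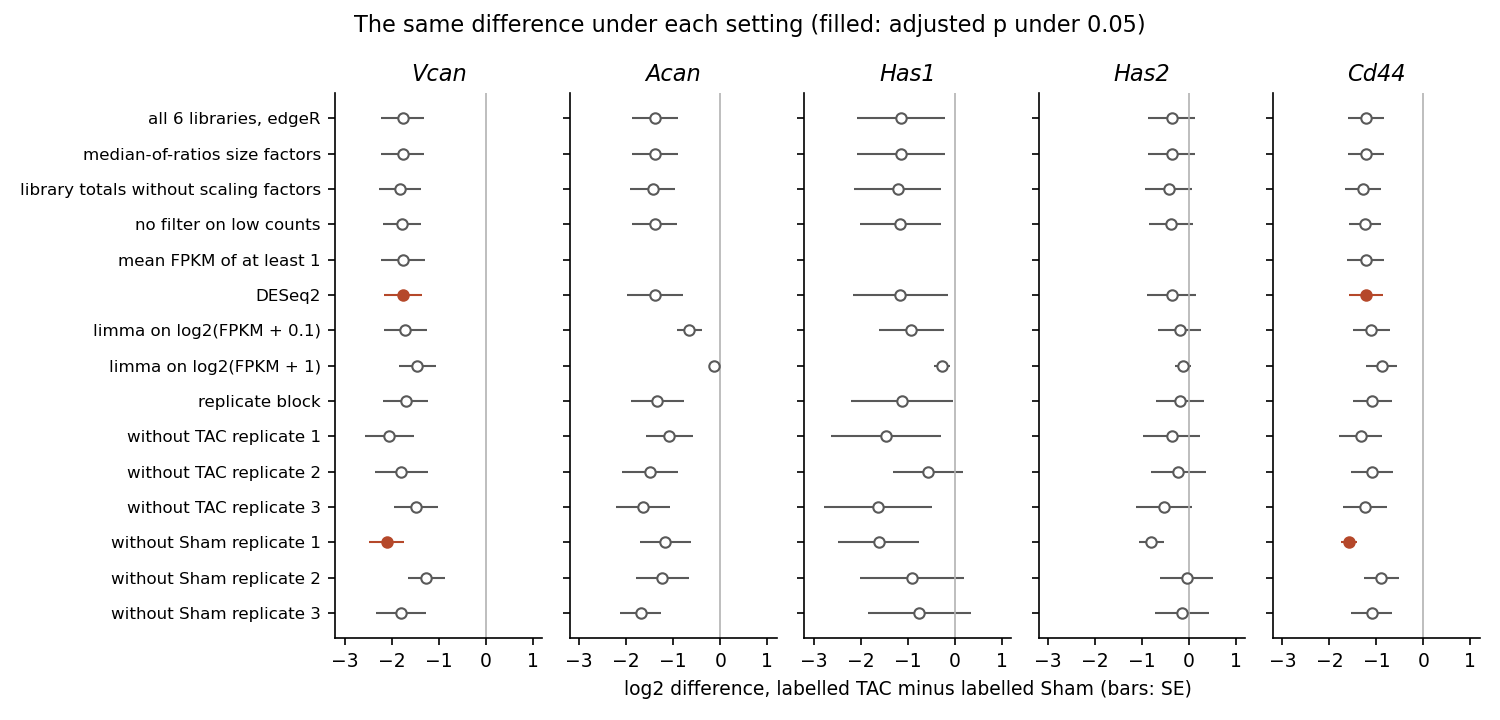
Log2 difference with SE bars (horizontal axes) of the 5 tested members under each setting (rows), filled where the adjusted p is under 0.05. Every estimate is negative, and the filled points are Vcan and Cd44 with DESeq2 and without Sham replicate 1.

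The lncRNA table of 43234 transcripts held 16 whose span overlaps that of a member: 7 at Vcan, 5 at Has2, 3 at Has1, 1 at Hapln1 and none at Acan or Cd44. Of these, 6 passed the filter on low counts, all at Vcan, and none passed an adjusted p of 0.05 in edgeR's quasi-likelihood test, where 0.106% of 16035 transcripts did. All 6 had a negative log2 difference, from -1.81 to -0.94, with an SE of 1.37 for NONMMUT092009.1. The share of negative estimates over all lncRNA transcripts tested is not given here. The 6 lie at 1 locus, so their count is no independent evidence of a direction. NONMMUT018576.2 (chromosome 13, 89709950 to 89710803), inside the Vcan span, had 7, 5 and 14 counts in TAC 1, 2 and 3 and 17, 55 and 23 in Sham 1, 2 and 3 (log2 difference -1.81). Sham 2 was its highest library, as it was for Vcan. Without the strand of the counting, reads where these transcripts overlap Vcan cannot be assigned to either. Most of the span of ENSMUST00000044500 (89739460 to 89842373) lies outside Vcan, which ends at 89742509.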

How the data were processed

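Counts and FPKM per gene and per lncRNA transcript were deposited by the authors as tables of the whole series, and columns were tied to libraries by the description labels. Per the submitters' processing notes, HISAT2 2.0.4, StringTie 1.3.0 and GRCm38 (mm10) were used. The role of each, the counting program, its strand setting and filters were not given in the sources used here. The FPKM values deposited by the authors divide each count by a length and the library's gene total, or for lncRNAs by a slightly larger total, which served as lncRNA library size.

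Counts were tested with edgeR 4.0.16 (quasi-likelihood, TMM, filterByExpr with a minimum count of 10, Benjamini-Hochberg) in R 4.3.3, over the whole table, with no block. Each SE was computed as the size of the fitted difference over the root of its F statistic. Alternatives were DESeq2 1.42.0, limma 3.58.1 on log2(FPKM + 0.1) and log2(FPKM + 1), other scalings and filters, a replicate block and each library left out. Members and lists were chosen with earlier results of these data known. List symbols were matched directly (177 entries) or by gene ID (2). Named genes are the members, list genes past the threshold, up to 2 others with the smallest p per list, and 3 most similar genes per member. A gene that this rule names is not reported here.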

Additional observations from a re-analysis of the deposited data

How the results depend on the processing

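All 5 tested members kept a negative log2 difference under every one of the 14 alternatives that tested them (13 for Acan, Has1 and Has2). Hapln1, positive in the fit without a filter, passed the filter in 4 fits with a library left out. These were the fits without TAC 1, TAC 2, Sham 1 or Sham 2, with estimates of 0.54 to 1.40. The fits without TAC 3, its highest library, or without Sham 3 gave no value, so the sign was not tried without TAC 3. No member passed in edgeR on all 6 libraries. With DESeq2 on the same libraries 2 members passed, Vcan (-1.76) and Cd44 (-1.22). In edgeR 0 to 2 passed when 1 library was left out. With a library left out, Vcan ran from -2.11 to -1.27, and Cd44 from -1.58 to -0.90. The number of genes called, 217, became 338 with unscaled library totals, 432 without a filter, 1195 with DESeq2, and 0 to 397 with a library left out. The share higher in the libraries labelled Sham was 77.4%, against 87.6% with unscaled totals, 59.6% with DESeq2, 97.6% with the replicate block and 69.0% without Sham 1. Pathway calls were 4 in edgeR on all libraries, where 1.43% of all genes were called, and 16 with DESeq2, where 8.02% were. They were 7 with unscaled totals (2.22% of all genes), 7 without a filter (1.96%) and 7 with limma on log2(FPKM + 0.1) (1.88%). With a library left out they were 0 to 9 (0% to 2.57% of all genes). No lncRNA transcript at a member passed in any fit. The labels do not say whether same-numbered libraries share anything but the number. Deviations of same-numbered libraries from their group means correlated at -0.15, -0.11 and -0.09, and those of the other pairs at 0.02 to 0.10. Deviations of libraries within a group are tied to each other, so these values cannot decide on a pairing. With the replicate block in edgeR 41 genes (0.27% of all tested) were called, with Tlr4 and Spp1 as the 2 pathway genes. Itih2 and Dse did not pass there, and Vcan stood at -1.71 (edgeR adjusted p = 0.189). Acan, Has1 and Hapln1 had 0 to 47 counts per library, which limits the precision of their values. The cause of these changes was not tested.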

Other observations

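A pair of lncRNA transcripts inside the Vcan span shared the same ends (chromosome 13, 89681142 to 89684158) and differed by 20 bases in length. NONMMUT018575.2 had counts of 0, 0 and 13 in TAC 1, 2 and 3, against 0, 45 and 0 in Sham 1, 2 and 3. NONMMUT092009.1 had 16, 10 and 0, and 19, 0 and 35. In none of the 6 libraries did both have a count above 0. Their sum was 16, 10 and 13 counts labelled TAC and 19, 45 and 35 counts labelled Sham. Neither transcript passed the test, the former being below the filter on low counts.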
